A study of Mus musculus with 12 samples.

Results

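B lineage identity genes are the genes that B cells and their precursors use and that T cells mostly do not. Here 34 such genes, listed by name, were followed in bulk RNA-seq libraries of regulatory T (Treg) cells sorted from mouse bone marrow. All 34 were among the 14259 genes of the count table, and all 34 were among the 13782 genes that passed the filter on low counts and were tested. By their known roles, 8 were grouped as early factors and precursor genes, 10 as B cell receptor and signalling genes and 11 as mature markers. The other 5 were given no stage. These are group names, and not every gene of a group is restricted to B cells of that stage. Cd37 of the mature group, for example, is also carried by T cells and other leukocytes.

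The study transferred Treg cells and wild-type (WT) conventional T cells into lethally irradiated C57BL/6 mice, with or without MLL-AF9 leukemic cells that carry eGFP, and sorted Treg cells from bone marrow on day 14. In the paper's scheme of its transfer models, the irradiated mice also received T cell-depleted bone marrow cells before the T cells. The groups were Treg cells lacking T-bet with leukemia (tumor Tbet-KO), Treg cells lacking the IL-33 receptor ST2 with leukemia (tumor ST2-KO), WT Treg cells with leukemia (tumor WT) and WT Treg cells without leukemia (no tumor WT), with 3 libraries each. WT and ST2-KO Treg cells carried a Foxp3-eGFP reporter and were sorted as CD4+CD25+eGFP+ cells, whereas the methods describe Tbet-KO Treg cells as isolated by CD4, CD25 and absence of CD127, so that gate and genotype cannot be told apart for that group. Nothing in the sources used here says that the 3 libraries of a group came from separate mice, so p-values measure only the spread between these libraries, which may be technical.

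The transcript of each targeted gene was still counted in its knockout. Il1rl1, which encodes ST2, had 256 ± 7.52 CPM (read counts scaled to library size; ± SD, n = 3 in every group) in tumor Tbet-KO, 89.9 ± 3.07 CPM in tumor ST2-KO, 129 ± 6.51 CPM in tumor WT and 76.9 ± 2.10 CPM in no tumor WT libraries. Tbx21, which encodes T-bet, had 14.7 ± 1.28 CPM in tumor Tbet-KO and 20.1 ± 3.07 CPM in tumor ST2-KO libraries, against 38.7 ± 2.78 CPM in tumor WT and 15.4 ± 2.81 CPM in no tumor WT libraries. Counts over a whole gene do not show whether a shortened transcript remained, so the knockout libraries are named below as labelled ST2-KO and labelled Tbet-KO. Cd4 and Foxp3 were counted in every library: Cd4 averaged 320 CPM in libraries labelled Tbet-KO, 120 CPM in those labelled ST2-KO, 243 CPM in tumor WT and 83.0 CPM in no tumor WT libraries, and Foxp3 averaged 112, 108, 159 and 67.8 CPM in the same groups. Transcripts of other lineages were counted too, among them the neutrophil granule gene Ngp, at 4536 to 6882 CPM as group means. Total counts ran from 13272943 to 18042521 per library.

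In bone marrow, the transcription factors EBF1 and PAX5 commit lymphoid progenitors to the B lineage, and PAX5 silences genes of other lineages. Precursors first assemble a pre-B cell receptor from rearranged heavy chains, surrogate light chains and the signalling pair CD79A and CD79B, and signal through SYK, BTK and BLNK. Mature B cells add coreceptors and survival receptors such as CD20, CD21, CD23 and the BAFF receptor.

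Promoter windows from RefSeq (build GRCm38.p6), 250 bases before to 50 after a gene's start, were matched for 26 of the 34 genes. They were searched on both strands for the EBF1 core CCCNNGGG, the octamer ATGCAAAT, the E-box CAGGTG and the ETS core GGAAGT. An E-box stood in at least 1 window of 14 of the 26 genes (53.8%), against 22.6% of the 27025 genes with a window, and the ETS core in 11 (42.3%), against 26.5%. The EBF1 core stood in 5 (19.2%), against 15.4%, and the octamer in 2 (7.69%), against 1.97%. Genes with several listed starts had more windows to search, and a match is a run of letters, not a bound site. Windows are shown for Cd79a and Blnk, whose levels separated all 4 groups, and for Bank1 and Cd37, whose levels did not, with matches in capitals (an E-box or ETS core on the other strand reads CACCTG or ACTTCC, and the octamer ATTTGCAT).
Cd79a: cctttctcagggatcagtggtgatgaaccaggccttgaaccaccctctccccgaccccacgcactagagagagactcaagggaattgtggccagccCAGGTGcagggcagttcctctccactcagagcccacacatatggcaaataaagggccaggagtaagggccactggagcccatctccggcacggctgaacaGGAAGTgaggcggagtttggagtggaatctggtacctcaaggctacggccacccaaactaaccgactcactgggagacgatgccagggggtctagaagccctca
Blnk: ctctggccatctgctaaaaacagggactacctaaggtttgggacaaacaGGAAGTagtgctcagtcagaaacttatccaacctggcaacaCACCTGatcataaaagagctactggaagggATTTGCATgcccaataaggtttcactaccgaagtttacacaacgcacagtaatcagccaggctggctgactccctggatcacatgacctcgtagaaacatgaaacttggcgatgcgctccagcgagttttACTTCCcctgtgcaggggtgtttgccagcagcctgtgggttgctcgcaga
Bank1: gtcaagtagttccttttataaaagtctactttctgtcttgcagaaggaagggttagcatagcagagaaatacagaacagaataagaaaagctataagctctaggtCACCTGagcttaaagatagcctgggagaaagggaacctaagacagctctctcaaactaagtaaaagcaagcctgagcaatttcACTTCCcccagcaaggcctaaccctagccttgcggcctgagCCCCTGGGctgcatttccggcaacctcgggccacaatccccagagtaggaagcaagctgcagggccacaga
Cd37: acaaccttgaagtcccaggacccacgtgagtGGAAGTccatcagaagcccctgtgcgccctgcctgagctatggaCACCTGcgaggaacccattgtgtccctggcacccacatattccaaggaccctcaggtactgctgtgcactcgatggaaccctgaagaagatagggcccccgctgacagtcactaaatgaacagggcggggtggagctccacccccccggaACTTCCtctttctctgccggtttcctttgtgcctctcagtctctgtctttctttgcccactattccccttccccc

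The windows lie at chr7:24897247-24897546 on the plus strand for Cd79a, at chr19:40994172-40994471 on the minus strand for Blnk, at chr3:136326017-136326316 on the minus strand for Bank1 and at chr7:45238790-45239089 on the minus strand for Cd37. Matches were found in each of these windows, those of Bank1 and Cd37 included: Cd79a held an E-box and an ETS core, Blnk an octamer, an E-box and 2 ETS cores, Bank1 an EBF1 core, an E-box and an ETS core, and Cd37 an E-box and 2 ETS cores.

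Summed over the 34 genes, B lineage transcripts made up 0.0957 to 0.0996% of all counts in libraries labelled Tbet-KO, 0.686 to 0.704% in those labelled ST2-KO, 0.346 to 0.351% in tumor WT and 0.902 to 0.908% in no tumor WT libraries. No 2 groups overlapped. In libraries labelled Tbet-KO, Cd24a alone averaged 385 of the 953 CPM summed over the 34 genes. Cd37 (94.7 CPM), Btk (83.8 CPM) and Swap70 (67.3 CPM) came next there. Relative to tumor WT, these genes fell less than Ebf1 or Pax5 or were not called, so the sum understates the falls of Ebf1 and Pax5. A share of counts is relative. In these bulk libraries, fewer B lineage cells, less RNA per cell and more RNA from other cells cannot be told apart. The level was highest in no tumor WT, followed by labelled ST2-KO, tumor WT and labelled Tbet-KO, and the means of 24 of the 34 genes had this order, as did 17.1% of all genes tested. For 21 of the 34, and 4.78% of all genes, each step between neighbouring groups also passed the test. The order is that of the sum of these same 34 genes, which were chosen with earlier results of these data known. Neither comparison with all genes is therefore independent support. Genes were called at an adjusted p below 0.05 in edgeR's quasi-likelihood test. In limma, an alternative test, Arpp21 lost its step between labelled ST2-KO and tumor WT (adjusted p = 0.190). Blk (0.0887), Fcrla (0.104), Rasgrp3 (0.0828) and Bfsp2 (0.129) lost theirs between labelled ST2-KO and no tumor WT in limma.

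**Figure D1:**
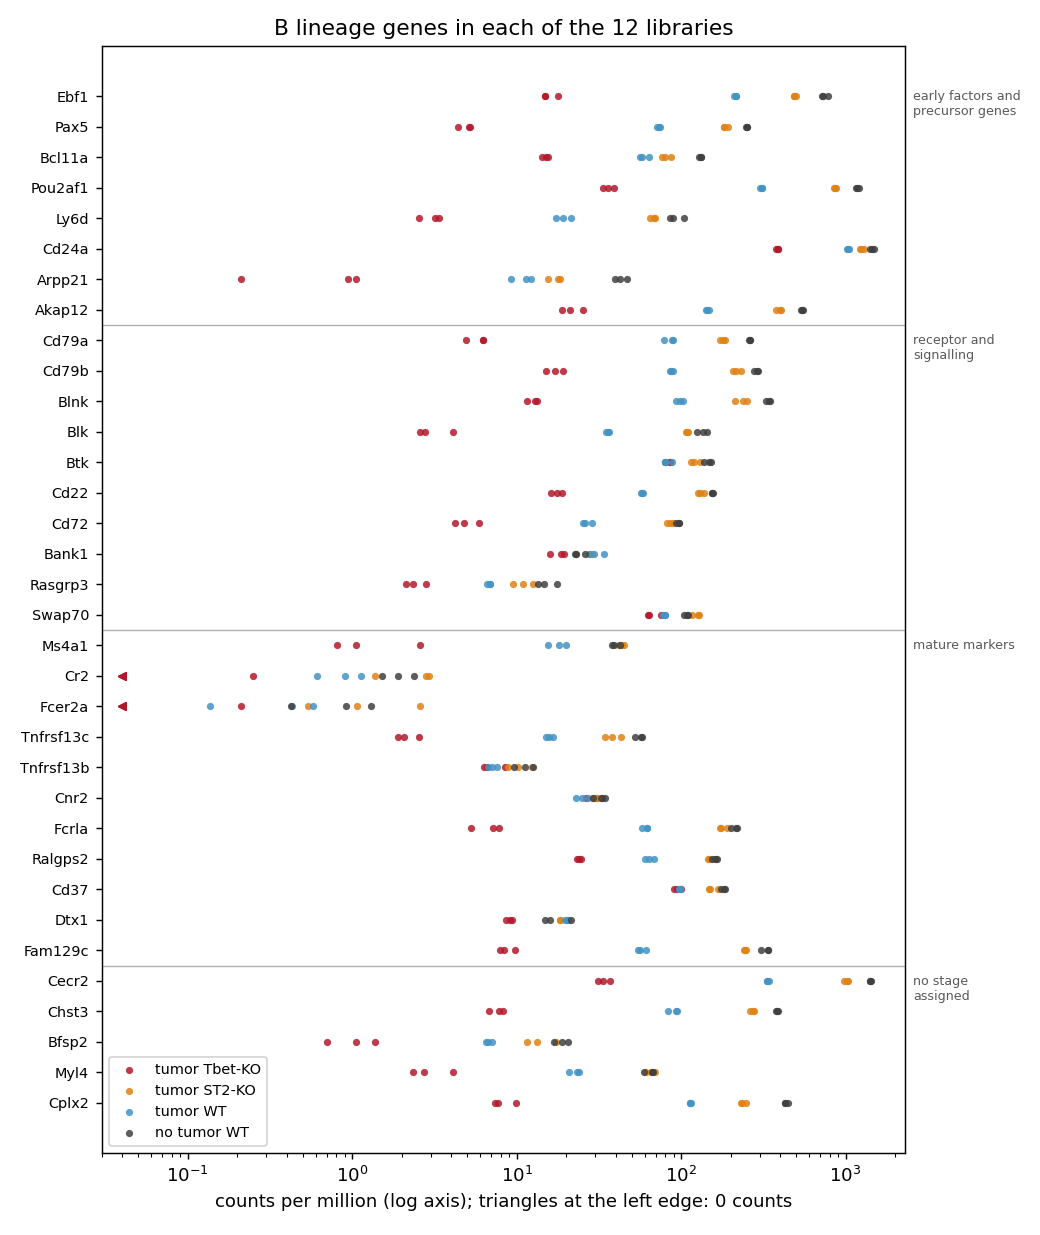
Level of each of the 34 genes in CPM (log axis) in each of the 12 libraries, 3 per group, with genes ordered by role. For 21 genes each step between neighbouring groups was called, as for Ebf1 (14.8 to 17.8 CPM in libraries labelled Tbet-KO, 717 to 777 CPM in no tumor WT libraries), whereas Btk, Cd37 and Cnr2 lie in narrow ranges.

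The first comparison asked how leukemia changed the transcripts of WT Treg cell libraries. B lineage genes were lower with leukemia: 30 of 34 fell (29.4% of all genes did) and 1, Bank1, rose (29.0% of all genes did). Of the 34, 24 fell by more than 1 on the log2 scale, as did 4.96% of all genes, and the median log2 fold change was -1.56, against 0.00 over all genes tested. Early factors and precursor genes fell in 8 of 8 cases (median log2 fold change -1.86), receptor and signalling genes in 9 of 10 (-1.52), mature markers in 8 of 11 (-1.15) and the genes with no stage in 5 of 5 (-1.93).

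Ebf1 encodes the factor that opens the B lineage programme. It had 210, 214 and 216 CPM in tumor WT libraries, against 777, 729 and 717 CPM in no tumor WT libraries. The groups did not overlap, and the log2 fold change was -1.79 ± 0.03 (SE, adjusted p = 1.41e-61). Pax5, which encodes the commitment factor of the lineage, had 73.9, 71.6 and 74.4 CPM in tumor WT libraries, against 250, 253 and 253 CPM in no tumor WT libraries, a log2 fold change of -1.78 ± 0.05. Every tumor WT value lay below every no tumor WT value. Pou2af1, the coactivator of octamer factors in B cells, averaged 306 ± 4.93 CPM in tumor WT and 1177 ± 23.1 CPM in no tumor WT libraries. Ly6d, a surface marker of B cell precursors, averaged 19.3 ± 1.95 CPM in tumor WT and 93.3 ± 10.04 CPM in no tumor WT libraries. Both fell, by 1.94 and 2.27 on the log2 scale. Cd24a encodes a surface protein of B cell precursors that granulocytes and red cell precursors also carry. It had the smallest fall of the early group, with 1034, 1047 and 1028 CPM in tumor WT libraries, against 1488, 1454 and 1404 CPM in no tumor WT libraries (log2 fold change -0.48 ± 0.02).

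The signalling pair of the receptor fell together. Cd79a had 88.6, 78.8 and 88.8 CPM in tumor WT libraries, against 258, 263 and 262 CPM in no tumor WT libraries (log2 fold change -1.61 ± 0.05). Cd79b had 85.9, 89.7 and 87.0 CPM in tumor WT libraries, against 295, 291 and 279 CPM in no tumor WT libraries (-1.72 ± 0.05). For both genes all tumor WT libraries were below all no tumor WT libraries. Blnk, the adaptor that links SYK to downstream enzymes, had 102, 98.6 and 93.7 CPM in tumor WT libraries, against 330, 346 and 344 CPM in no tumor WT libraries (-1.79 ± 0.04). Blk, a SRC family kinase of B cells, had 35.8, 35.1 and 36.2 CPM in tumor WT libraries, against 124, 136 and 144 CPM in no tumor WT libraries (-1.92 ± 0.07). Neither gene overlapped between the groups. Btk encodes a kinase that myeloid cells also use. It had 87.5, 79.9 and 80.1 CPM in tumor WT libraries, against 151, 148 and 137 CPM in no tumor WT libraries, a smaller difference of -0.82 ± 0.05.

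Bank1, a B cell scaffold protein, went the other way from the list median. It had 27.4, 33.9 and 29.7 CPM in tumor WT libraries, against 23.0, 22.7 and 26.2 CPM in no tumor WT libraries, and its log2 fold change of 0.34 ± 0.11 (adjusted p = 0.00502) was -1.03 when libraries were scaled to T cell genes, a scaling under which the median of all genes was -1.36. The groups did not overlap, but without tumor WT replicate 2, the highest library, the log2 fold change was 0.25 and not called (adjusted p = 0.0765). Dtx1, a regulator of Notch signalling, averaged 20.3 ± 0.462 CPM in tumor WT and 17.4 ± 3.47 CPM in no tumor WT libraries and was not called (log2 fold change 0.22 ± 0.13, adjusted p = 0.134), but without no tumor WT replicate 3 it was 0.39 and called (adjusted p = 0.0145).

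Among mature markers, Fam129c, a gene expressed in B cells, had the largest fall of the 34 genes. It had 56.2, 54.8 and 61.5 CPM in tumor WT libraries, against 307, 335 and 340 CPM in no tumor WT libraries (log2 fold change -2.51 ± 0.05, adjusted p = 1.67e-60). Ms4a1, which encodes CD20, had 19.95, 18.03 and 15.5 CPM in tumor WT libraries, against 42.6, 38.9 and 37.8 CPM in no tumor WT libraries (-1.15 ± 0.11). In both, the groups were separate. Cd37, a tetraspanin that T cells and other leukocytes also carry, had 99.1, 98.8 and 96.6 CPM in tumor WT libraries, against 174, 186 and 184 CPM in no tumor WT libraries (-0.88 ± 0.05). Cr2 (CD21) and Fcer2a (CD23), markers of mature B cells, were near the limit of counting, with 0.883 ± 0.262 and 0.383 ± 0.227 CPM in tumor WT libraries, against 1.93 ± 0.428 and 0.885 ± 0.445 CPM in no tumor WT libraries. Neither was called. CD21 and CD23 appear late in B cell development.

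The second comparison asked what loss of ST2 in Treg cells changed under leukemia. B lineage genes were higher in libraries labelled ST2-KO than in tumor WT libraries: 32 of 34 rose (23.1% of all genes did), and 23 rose by more than 1 on the log2 scale (2.66% of all genes did). The median log2 fold change was 1.25, against 0.00 over all genes. Bank1 (-0.19 ± 0.11, adjusted p = 0.149) and Dtx1 (-0.08 ± 0.13, adjusted p = 0.627) were not called. The tumor WT libraries serve as reference here and stood on top of the fold change in the first comparison, so the directions of these comparisons are not independent. Other measures moved with this difference. The ribosomal RNA precursor Rn45s took 7.07 to 7.44% of counts in libraries labelled ST2-KO, against 3.53 to 3.66% in tumor WT libraries. Of 5 erythroid genes tested, 4 fell (22.8% of all genes did, median log2 fold change -1.01), and their summed level was 375 to 400 CPM in libraries labelled ST2-KO, against 813 to 856 CPM in tumor WT libraries. The part of either in the B lineage difference was not tested.

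Ebf1 had 486, 498 and 486 CPM in libraries labelled ST2-KO, against 210, 214 and 216 CPM in tumor WT libraries (log2 fold change 1.20 ± 0.03, adjusted p = 3.94e-48). Pax5 had 193, 181 and 182 CPM in libraries labelled ST2-KO, against 73.9, 71.6 and 74.4 CPM in tumor WT libraries (1.34 ± 0.05). The groups did not overlap in either gene. Bcl11a, a zinc finger factor needed for early B cell development that dendritic cells also express, differed less, with 76.1, 87.2 and 80.1 CPM in libraries labelled ST2-KO, against 56.0, 63.6 and 58.1 CPM in tumor WT libraries (0.46 ± 0.06). Fam129c again had the largest difference, with 241, 246 and 249 CPM in libraries labelled ST2-KO, against 56.2, 54.8 and 61.5 CPM in tumor WT libraries (2.09 ± 0.05, adjusted p = 7.04e-54). All libraries labelled ST2-KO were above all tumor WT libraries for both genes.

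Cd79a had 185, 180 and 172 CPM in libraries labelled ST2-KO, against 88.6, 78.8 and 88.8 CPM in tumor WT libraries (log2 fold change 1.06 ± 0.05), and Cd79b rose by 1.32 ± 0.05. Blnk rose by 1.25 ± 0.05, to 239, 250.6 and 214 CPM in libraries labelled ST2-KO, and Blk by 1.61 ± 0.07, to 110, 108 and 109 CPM. None of these genes overlapped between the groups. Swap70, a guanine exchange factor of activated B cells, had 126, 129 and 116 CPM in libraries labelled ST2-KO, against 79.5, 78.2 and 79.7 CPM in tumor WT libraries (0.64 ± 0.06). Ms4a1 had 44.99, 43.8 and 41.9 CPM in libraries labelled ST2-KO, against 19.95, 18.03 and 15.5 CPM in tumor WT libraries (1.28 ± 0.11). The groups were separate for both genes. Cnr2, the peripheral cannabinoid receptor, was called at a small size (0.26 ± 0.10, adjusted p = 0.0276). The call was lost without labelled ST2-KO replicate 2 (0.24, adjusted p = 0.0743) or tumor WT replicate 2 (0.25, adjusted p = 0.0676) or 3 (0.20, adjusted p = 0.147). Cr2 (1.41 ± 0.51, adjusted p = 0.0192) lost its call without labelled ST2-KO replicate 1 (1.27) or 3 (1.23) or tumor WT replicate 2 (1.42) or 3 (1.21), and Fcer2a (1.83 ± 0.69, adjusted p = 0.0238) without labelled ST2-KO replicate 3 (1.03) or tumor WT replicate 1 (1.92) or 3 (1.46). Both had low counts. Tnfrsf13b, the TACI receptor (0.57 ± 0.18, adjusted p = 0.00617), lost its call without labelled ST2-KO replicate 3 (0.42, adjusted p = 0.0704).

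Set against no tumor WT libraries, those labelled ST2-KO were lower for 23 of 34 genes (17.0% of all genes fell) and higher for 1, Swap70 (15.0% of all genes rose), with a median log2 fold change of -0.36, against -0.02 over all genes. Only Arpp21, a cyclic AMP regulated phosphoprotein transcribed in B cell precursors, fell by more than 1, as did 0.951% of all genes. It had 15.6, 18.5 and 17.9 CPM in libraries labelled ST2-KO, against 47.1, 39.9 and 42.6 CPM in no tumor WT libraries (log2 fold change -1.32 ± 0.13, adjusted p = 1.02e-14), with no overlap. Early genes fell in 8 of 8 cases (median -0.46), whereas mature markers fell in 4 of 11 (median -0.08). The difference between these role groups was not tested. Ms4a1 (0.13 ± 0.11, adjusted p = 0.383), Myl4, a myosin light chain (0.02 ± 0.08, adjusted p = 0.911), and Ralgps2, an exchange factor for RAL (-0.07 ± 0.05, adjusted p = 0.311), were not called. Swap70 rose by 0.20 ± 0.06 (adjusted p = 0.00333), but scaling to T cell genes gave -0.21, while the median of all genes moved to -0.42.

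**Figure D2:**
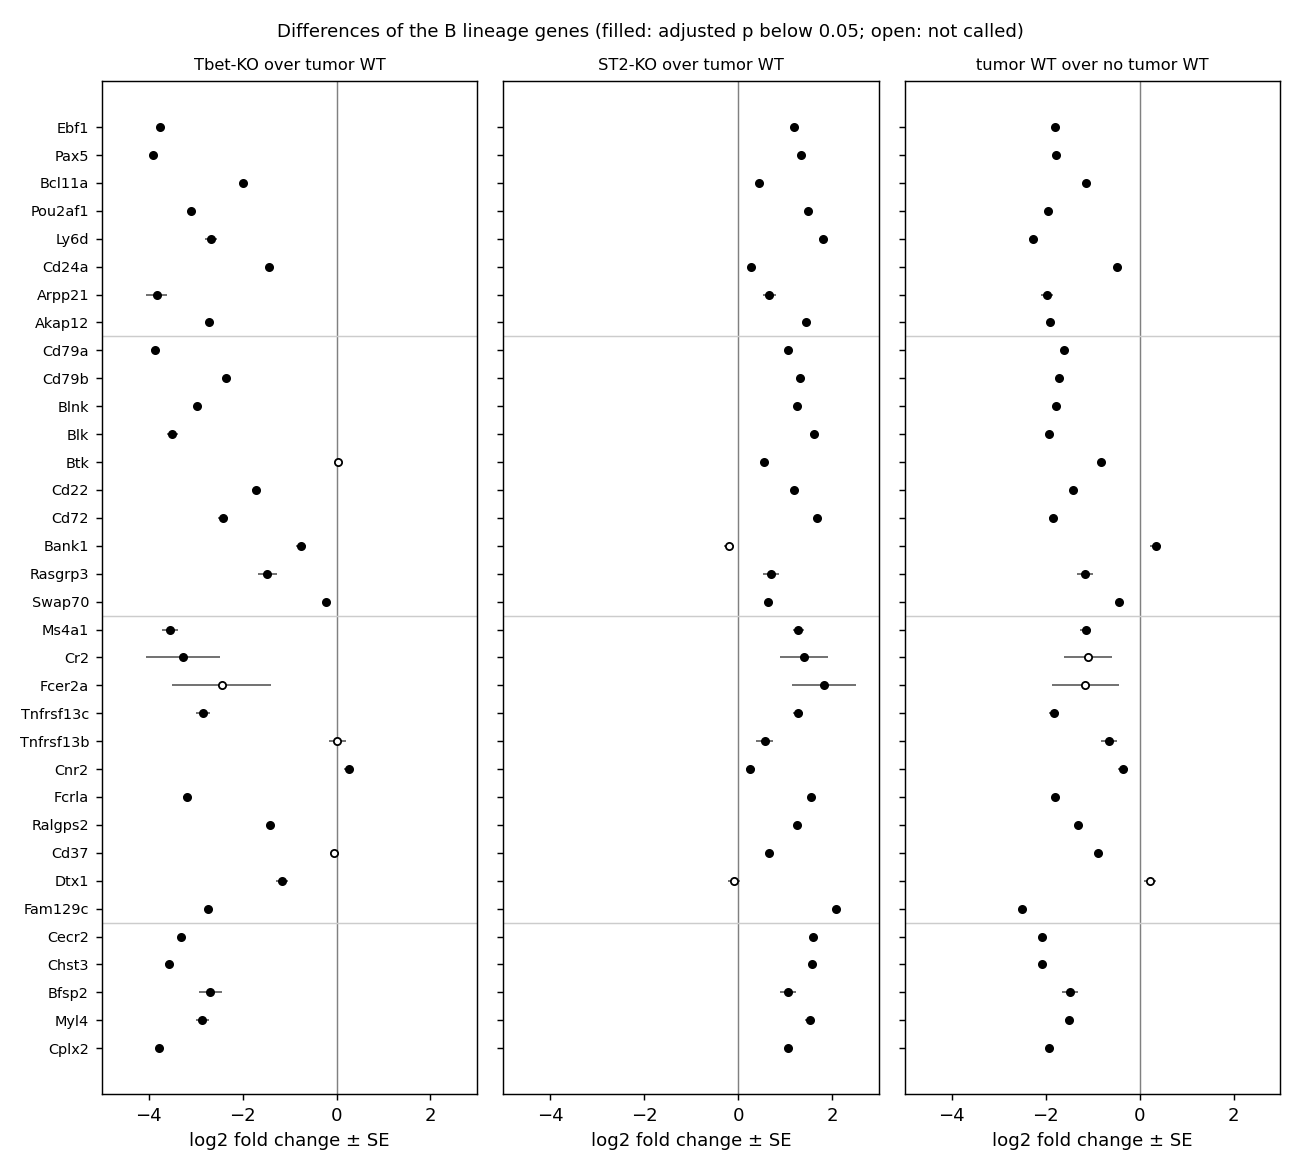
Log2 fold change ± SE of each of the 34 genes, with libraries labelled Tbet-KO over tumor WT (left), labelled ST2-KO over tumor WT (middle) and tumor WT over no tumor WT (right), 3 libraries per group, filled where called at an adjusted p below 0.05. The left panel is negative for 29 called genes, the middle positive for 32 and the right negative for 30, with Btk, Cd37 and Tnfrsf13b open near 0 on the left.

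The third comparison asked what loss of T-bet in Treg cells changed under leukemia. B lineage genes were lower still: 29 of 34 fell in libraries labelled Tbet-KO relative to tumor WT libraries (20.6% of all genes did) and 1, Cnr2, rose (18.1% of all genes did). Of the 34, 27 fell by more than 1 on the log2 scale, as did 5.24% of all genes, and the median log2 fold change was -2.70, against 0.01 over all genes. Both counts of falls include Cr2, which had only 4, 0 and 0 reads in libraries labelled Tbet-KO. Early genes fell in 8 of 8 cases (median -2.91), receptor and signalling genes in 9 of 10 (-2.04), mature markers in 7 of 11 (-2.44) and the genes with no stage in 5 of 5 (-3.30). The median of the mature markers was the value of Fcer2a, which was not called (adjusted p = 0.0579). Fcer2a had 0, 0 and 3 reads in libraries labelled Tbet-KO. Erythroid genes fell with the B lineage genes: 5 of 5 tested, each by more than 1 on the log2 scale (median -2.45). Their summed level was 137 to 149 CPM in libraries labelled Tbet-KO, against 813 to 856 CPM in tumor WT libraries. Of 6 Treg genes 5 fell (median -0.45) and 1 rose. Rn45s took 4.72 to 5.20% of counts in libraries labelled Tbet-KO, against 3.53 to 3.66% in tumor WT libraries. The part of these in the B lineage difference was not tested.

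Pax5 had the largest fall, with 5.19, 4.43 and 5.17 CPM in libraries labelled Tbet-KO, against 73.9, 71.6 and 74.4 CPM in tumor WT libraries (log2 fold change -3.90 ± 0.08, adjusted p = 2.02e-58), a 14.9-fold lower level. Ebf1 had 14.8, 14.9 and 17.8 CPM in libraries labelled Tbet-KO, against 210, 214 and 216 CPM in tumor WT libraries (-3.76 ± 0.05). Cd79a had 6.25, 6.25 and 4.95 CPM in libraries labelled Tbet-KO, against 88.6, 78.8 and 88.8 CPM in tumor WT libraries (-3.87 ± 0.08). All 3 genes were more than 10 times lower in every library labelled Tbet-KO than in any tumor WT library. Cd79b, the partner chain, fell less, with 15.0, 19.1 and 17.1 CPM in libraries labelled Tbet-KO, against 85.9, 89.7 and 87.0 CPM in tumor WT libraries (-2.35 ± 0.06). Blnk had 13.2, 12.98 and 11.5 CPM in libraries labelled Tbet-KO, against 102, 98.6 and 93.7 CPM in tumor WT libraries (-2.96 ± 0.07). Blk had 4.12, 2.60 and 2.76 CPM in libraries labelled Tbet-KO, against 35.8, 35.1 and 36.2 CPM in tumor WT libraries (-3.49 ± 0.11). No library overlapped between the groups in these genes.

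Falls were smaller in Bcl11a, with 15.2, 14.2 and 15.4 CPM in libraries labelled Tbet-KO, against 56.0, 63.6 and 58.1 CPM in tumor WT libraries (log2 fold change -1.99 ± 0.08), and in Cd24a, with 388, 387 and 379 CPM, against 1034, 1047 and 1028 CPM (-1.43 ± 0.02). Ms4a1 had 0.812, 2.60 and 1.06 CPM in libraries labelled Tbet-KO, against 19.95, 18.03 and 15.5 CPM in tumor WT libraries (-3.55 ± 0.18). All of these were separate between the groups. Cr2 was represented by 4, 0 and 0 reads and Fcer2a by 0, 0 and 3 reads in the libraries labelled Tbet-KO, too few for a reliable fold change, and a count of 0 allows up to 3 reads by counting error alone. Cr2 had 9 to 21 reads and Fcer2a 2 to 9 reads per tumor WT library.

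Several genes did not follow. Btk had 86.2, 85.3 and 80.0 CPM in libraries labelled Tbet-KO, against 87.5, 79.9 and 80.1 CPM in tumor WT libraries (log2 fold change 0.02 ± 0.05, adjusted p = 0.789), and Cd37 had 93.9, 99.3 and 90.9 CPM, against 99.1, 98.8 and 96.6 CPM (-0.05 ± 0.05, adjusted p = 0.453). Both overlapped between the groups, and Tnfrsf13b (0.01 ± 0.18, adjusted p = 0.972) was not called either. Swap70 fell slightly, with 63.5, 75.6 and 62.6 CPM in libraries labelled Tbet-KO, against 79.5, 78.2 and 79.7 CPM in tumor WT libraries (-0.23 ± 0.06). Cnr2 had 26.6, 33.1 and 30.4 CPM in libraries labelled Tbet-KO, against 27.1, 24.9 and 23.0 CPM in tumor WT libraries (0.26 ± 0.10, adjusted p = 0.0288). The Cnr2 values overlapped, and the call was lost when labelled Tbet-KO replicate 2 (0.18, adjusted p = 0.220) or 3 (0.25, adjusted p = 0.0704), or tumor WT replicate 2 (0.26, adjusted p = 0.0735) or 3 (0.21, adjusted p = 0.158), was left out.

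Relative to libraries labelled ST2-KO, those labelled Tbet-KO were lower for 33 of 34 genes (27.4% of all genes fell), 28 of them by more than 1 on the log2 scale (7.28% of all genes), with a median log2 fold change of -4.20, against 0.00 over all genes. The range ran from Pax5 (-5.24 ± 0.07, adjusted p = 3.15e-71) to Cnr2 (0.00 ± 0.10, adjusted p = 0.992). Relative to no tumor WT libraries, 33 of 34 fell (32.3% of all genes did), 27 by more than 1 (9.56% of all genes), with a median of -4.37, against 0.00. The counts of falls in both comparisons include Cr2 and Fcer2a, whose reads in libraries labelled Tbet-KO were too few for a reliable fold change. Arpp21 stood at the low end, with 0.937, 1.06 and 0.212 CPM in libraries labelled Tbet-KO, against 47.1, 39.9 and 42.6 CPM in no tumor WT libraries (-5.81 ± 0.20, adjusted p = 5.81e-43). Cnr2 stood at the other end and was not called (-0.09 ± 0.10, adjusted p = 0.426).

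Of the 5 genes given no stage, 4 followed the order of the groups at every step, and Myl4 did not. Cecr2, a chromatin remodelling protein, averaged 33.9 ± 2.81 CPM in libraries labelled Tbet-KO, 1008 ± 28.5 CPM in those labelled ST2-KO, 336 ± 6.95 CPM in tumor WT and 1417 ± 12.5 CPM in no tumor WT libraries. Chst3, a chondroitin sulfotransferase, averaged 7.60 ± 0.734, 271 ± 8.14, 90.1 ± 6.25 and 382 ± 4.77 CPM in the same groups. Cplx2, complexin 2, averaged 8.36 ± 1.37, 239 ± 8.54, 114 ± 1.06 and 435 ± 8.85 CPM in the same groups. The lens filament gene Bfsp2 was the fourth, but its smallest step, between labelled ST2-KO and no tumor WT (log2 fold change -0.41 ± 0.16, adjusted p = 0.0374), was lost without labelled ST2-KO replicate 2 (-0.29, adjusted p = 0.198) or 3 (-0.37, adjusted p = 0.0959) and without no tumor WT replicate 1 (-0.35, adjusted p = 0.161) or 3 (-0.41, adjusted p = 0.0926). The same step of Rasgrp3, a RAS exchange factor of receptor signalling (-0.47 ± 0.17, adjusted p = 0.0240), was lost without labelled ST2-KO replicate 1 (-0.38, adjusted p = 0.104) or no tumor WT replicate 3 (-0.35, adjusted p = 0.18). The limma test also lost this step for both genes, and DESeq2 lost it for Bfsp2 (adjusted p = 0.0501).

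The remaining members of the early, receptor and mature groups mostly shared this order. Akap12, an anchoring protein for protein kinase A, averaged 21.7 ± 3.30 CPM in libraries labelled Tbet-KO, 395 ± 13.1 CPM in those labelled ST2-KO, 144 ± 2.45 CPM in tumor WT and 545 ± 5.90 CPM in no tumor WT libraries. Cd22, an inhibitory lectin of the B cell receptor, averaged 17.6 ± 1.42, 132 ± 5.41, 58.1 ± 0.860 and 156 ± 1.32 CPM in the same groups. Cd72, an inhibitory coreceptor, averaged 4.99 ± 0.839, 86.0 ± 3.55, 26.7 ± 1.79 and 95.9 ± 2.05 CPM in the same groups. All 3 genes were called in the 3 comparisons above, and Cd72 was the exception only between libraries labelled ST2-KO and no tumor WT (log2 fold change -0.16 ± 0.07, adjusted p = 0.0756), where it was called without labelled ST2-KO replicate 1 (-0.19, adjusted p = 0.0470). Tnfrsf13c, the BAFF receptor that mature B cells need to survive, averaged 2.18 ± 0.340, 38.3 ± 4.33, 15.8 ± 0.878 and 55.8 ± 2.73 CPM in the same groups. Fcrla, an Fc receptor-like protein inside B cells, averaged 6.77 ± 1.31, 179 ± 9.04, 60.9 ± 2.36 and 212 ± 8.06 CPM in the same groups. Ralgps2 averaged 24.0 ± 0.643, 152 ± 9.61, 64.0 ± 4.07 and 160 ± 5.52 CPM in the same groups. In each of these 3 genes, all libraries labelled Tbet-KO lay below all others. The range of Tnfrsf13b was narrower, at 7.15 ± 1.17, 10.5 ± 1.86, 7.09 ± 0.446 and 11.1 ± 1.47 CPM in the same groups, and Rasgrp3 averaged 2.43 ± 0.363, 11.01 ± 1.53, 6.78 ± 0.166 and 15.2 ± 2.13 CPM in the same groups.

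Per length of gene, as FPKM back-transformed from the log2 values, the chains of the receptor pair differed most in libraries labelled Tbet-KO. Cd79a averaged 4.48 FPKM and Cd79b 14.4 FPKM in libraries labelled Tbet-KO. In those labelled ST2-KO they averaged 135 and 183 FPKM, in tumor WT 64.4 and 73.1 FPKM, and in no tumor WT 197 and 241 FPKM. The log2 ratio of Cd79b to Cd79a in CPM was 1.55 in libraries labelled Tbet-KO, 0.29 in those labelled ST2-KO, 0.04 in tumor WT and 0.14 in no tumor WT libraries, a difference that was not tested.

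Because the genes share a direction, each was also set against Cd79a within the same library, as a log2 ratio and with no test. Of the 31 genes compared (2 had a library with 0 reads), 21 in tumor WT and 25 in libraries labelled ST2-KO had a mean ratio within 0.5 of that in no tumor WT libraries. In libraries labelled Tbet-KO 8 did, 22 lay over 0.5 above and 1, Arpp21, lay over 0.5 below (-0.68). Cd79a itself had a log2 fold change of -5.48 in labelled Tbet-KO over no tumor WT, against a median of -4.37 for the 34 genes. Any gene that fell less than Cd79a gains in this ratio, so the count above depends on the choice of Cd79a as reference. Ebf1 (-0.06), Blk (0.05), Cecr2 (0.11) and Chst3 (-0.16) had nearly the same ratio to Cd79a in libraries labelled Tbet-KO as in no tumor WT libraries. Cnr2 (5.40), Bank1 (5.08), Tnfrsf13b (4.85), Swap70 (4.81), Btk (4.70), Dtx1 (4.57), Cd37 (4.56) and Cd24a (3.58) had the largest gains. Cells outside the B lineage are also known to express Btk, Cd37 and Cd24a. The part of such cells in the ratios of any of these genes was not tested.

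**Figure D3:**
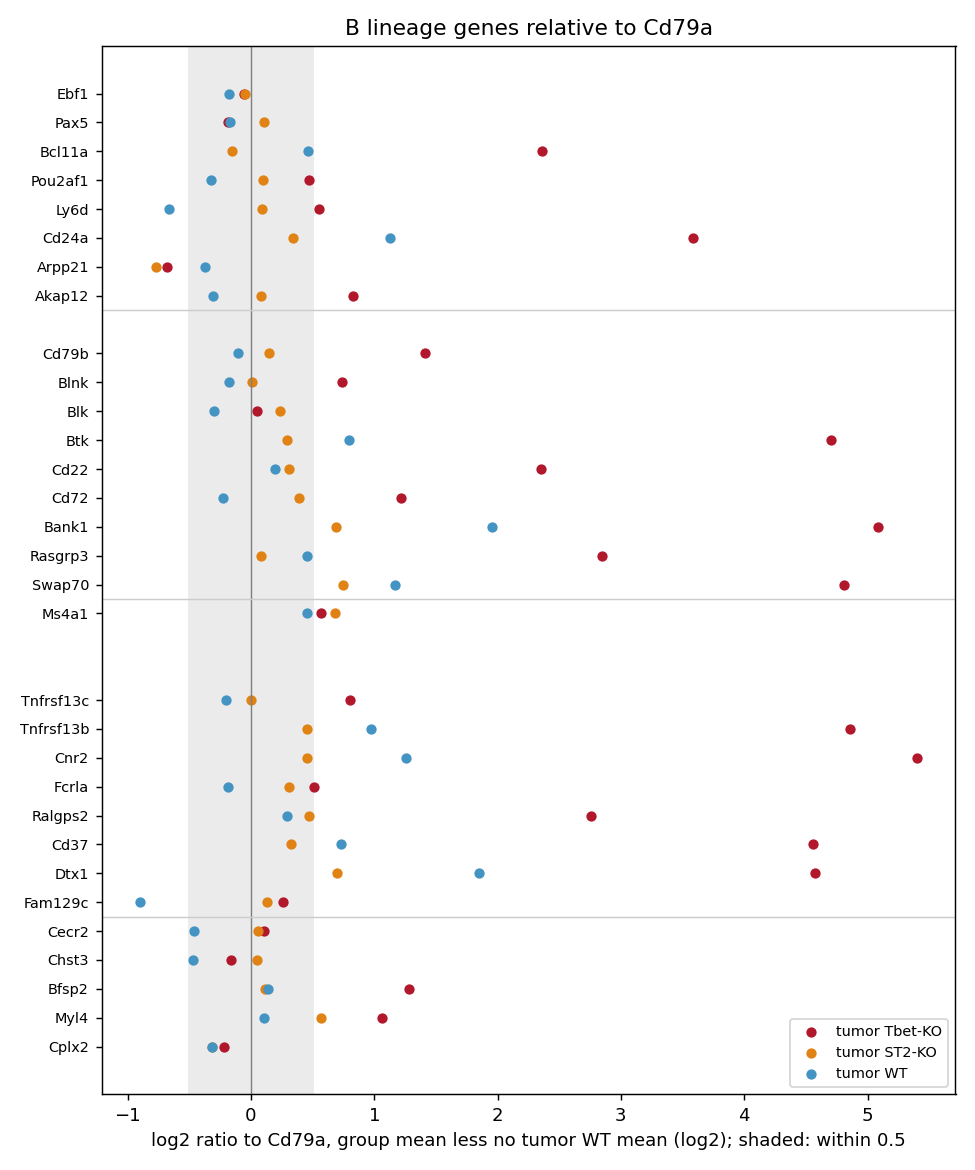
Log2 ratio of each gene to Cd79a, group mean less the no tumor WT mean (n = 3 libraries per group), for libraries labelled Tbet-KO, labelled ST2-KO and tumor WT, with differences within 0.5 shaded. Most points of labelled ST2-KO and tumor WT lie in or near the shading, and 22 of 31 points of labelled Tbet-KO lie above it, up to 5.40 for Cnr2. Cd79a, the reference, had a log2 fold change of -5.48 in labelled Tbet-KO over no tumor WT, against a median of -4.37 for the 34 genes.

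Other genes of the B lineage were taken from lists made for the same purpose. As background for their counts, 20.6% of all genes fell and 18.1% rose in libraries labelled Tbet-KO relative to tumor WT, 22.8% fell and 23.1% rose in those labelled ST2-KO relative to tumor WT, and 29.4% fell and 29.0% rose in tumor WT relative to no tumor WT. Of 7 pre-B receptor and recombination genes, 7 fell in libraries labelled Tbet-KO relative to tumor WT (median log2 fold change -3.94), 5 rose in those labelled ST2-KO relative to tumor WT (0.44), and 6 fell in tumor WT relative to no tumor WT (-1.40). Their median in libraries labelled ST2-KO relative to tumor WT was nearer 0 than that of the 34 genes (1.25). The 34 genes and these lists were chosen with earlier results of these data known, so such contrasts support no claim. Rag1, which encodes a subunit of the recombinase of receptor genes, had 12.7, 16.2 and 16.0 CPM in libraries labelled Tbet-KO, 707, 724 and 733 CPM in those labelled ST2-KO, 225, 239 and 227 CPM in tumor WT and 1004, 1036 and 986 CPM in no tumor WT libraries. Igll1, a surrogate light chain, averaged 4.30 ± 0.142, 102 ± 1.69, 78.3 ± 2.70 and 167 ± 2.55 CPM in the same groups.

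Of 11 other receptor signalling genes, 7 fell in libraries labelled Tbet-KO relative to tumor WT and 1 rose, 7 rose in those labelled ST2-KO relative to tumor WT and 1 fell, and 8 fell in tumor WT relative to no tumor WT and 2 rose. Their medians of -0.43, 0.34 and -0.57 were nearer 0 than those of the 34 genes, a contrast that the choice of genes limits in the same way. Of 11 other B lineage factors, 9 fell in libraries labelled Tbet-KO relative to tumor WT and 1 rose (median -0.41), 8 rose in those labelled ST2-KO and 1 fell (0.35), and 9 fell in tumor WT relative to no tumor WT and 1 rose (-0.74). Spib, an ETS factor of B cells and plasmacytoid dendritic cells, averaged 12.9 ± 0.278 CPM in libraries labelled Tbet-KO, 464 ± 20.1 CPM in those labelled ST2-KO, 134 ± 0.335 CPM in tumor WT and 579 ± 11.3 CPM in no tumor WT libraries. Ikzf1, a factor of all lymphocytes, averaged 661 ± 15.5, 933 ± 4.49, 789 ± 18.2 and 1052 ± 7.81 CPM in the same groups.

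T cell genes moved in the opposite direction in part of the design. The summed level of 12 T cell genes was 1664 to 1701 CPM in libraries labelled Tbet-KO, 794 to 822 CPM in those labelled ST2-KO, 1564 to 1599 CPM in tumor WT and 595 to 630 CPM in no tumor WT libraries. All 12 rose in tumor WT relative to no tumor WT (29.0% of all genes did). All 12 fell in libraries labelled ST2-KO relative to tumor WT (22.8% of all genes did). In libraries labelled Tbet-KO relative to tumor WT, however, 6 rose and 3 fell (18.1% and 20.6% of all genes did). The median log2 fold change there was 0.13, while the B lineage median was -2.70. Il7r, which encodes CD127, averaged 229 ± 5.10 CPM in libraries labelled Tbet-KO, 379 ± 7.87 CPM in those labelled ST2-KO, 279 ± 5.33 CPM in tumor WT and 475 ± 12.4 CPM in no tumor WT libraries, the same order as the B lineage genes. CD127 is also carried by B cell precursors. Of 6 plasma cell genes tested, 2 rose, 2 fell and 2 were not called in libraries labelled Tbet-KO relative to tumor WT (median 0.14, range -2.30 to 2.75). At the upper end Jchain, the joining chain of secreted antibodies, averaged 275 ± 4.52, 45.99 ± 3.39, 40.8 ± 0.969 and 24.3 ± 1.31 CPM in the same groups, and at the lower end Mzb1, a chaperone of antibody-secreting cells, averaged 2.58 ± 0.412 CPM in libraries labelled Tbet-KO and 12.8 ± 0.444 CPM in tumor WT libraries. The 4 fusion targets of MLL examined (Hoxa7, Hoxa9, Hoxa10 and Meis1) summed to 172 ± 1.85 CPM in libraries labelled Tbet-KO, 72.3 ± 2.15 CPM in those labelled ST2-KO, 73.6 ± 3.32 CPM in tumor WT and 9.18 ± 0.442 CPM in no tumor WT libraries. Of 9 neutrophil genes 8 fell, and of 7 monocyte and macrophage genes 6 fell, in libraries labelled ST2-KO relative to tumor WT (22.8% of all genes did). The part of these cell types in the B lineage differences was not tested.

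**Figure D4:**
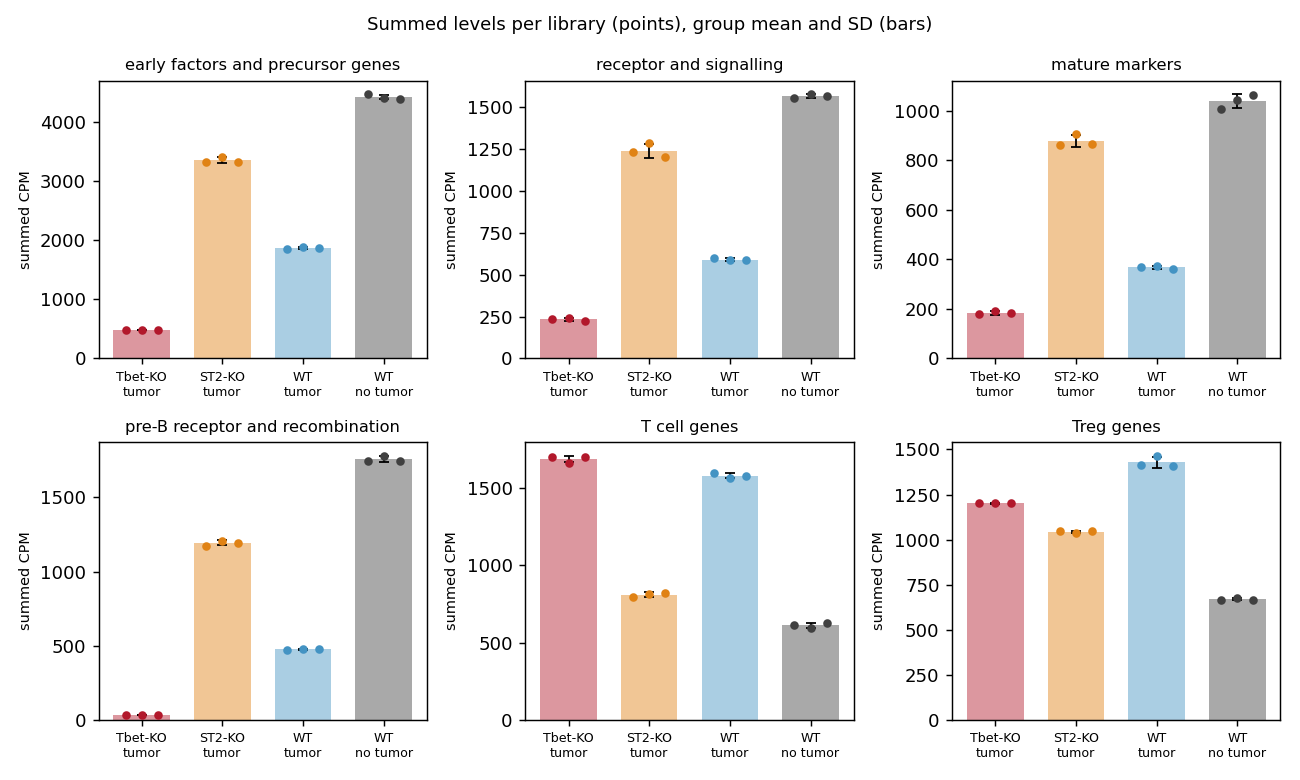
Summed CPM per library (points) with group mean and SD (bars, n = 3) for the early, receptor and mature B lineage genes, the pre-B receptor and recombination genes, 12 T cell genes and 6 Treg genes. The B lineage panels are highest in no tumor WT and lowest in libraries labelled Tbet-KO, whereas T cell genes are highest in libraries labelled Tbet-KO (1664 to 1701 CPM) and tumor WT. In libraries labelled Tbet-KO, Cd24a averaged 385 of the 482 CPM in the panel of early genes.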

How the data were processed

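Bulk RNA was sequenced after rRNA removal in 12 libraries (4 groups of 3). The authors deposited raw counts per gene and log2 FPKM per gene, made with STAR and mm10 with UCSC gene models and featureCounts, and FastQC is also listed in the submitters' processing notes. How counting treated strand and shared reads is not given in the sources used here. The headers give libraries labelled ST2-KO and tumor WT the same sequencer sample numbers, but their counts differ. The deposited log2 FPKM differed from log2 CPM (prior count 2) only by a gene-specific constant.

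Genes kept by filterByExpr were scaled by TMM and tested in 1 fit of all 12 libraries (6 comparisons) with edgeR 4.0.16 quasi-likelihood (R 4.3.3) and Benjamini-Hochberg adjustment over 13782 genes. CPM are TMM-scaled. The biological coefficient of variation was 5.53%. The procedure was tested on simulated data. Replicates differed beyond counting noise (chi-square per degree of freedom 2.27 to 4.98). Total counts were 13272943 to 18042521. An exact permutation test of 3 against 3 libraries cannot go below p = 0.1 and was not used.

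The 34 genes, their role groups and the other lists were chosen with earlier results of these data known, and support no claim by their choice. All 34 could be named, and full values are given for a fixed set plus the genes with the largest and smallest fold change of each comparison, of other lists at most the 4 with the highest mean level. None of the 6 immunoglobulin genes of a further list was found by its symbol in the count table, so they were not analysed here. Alternatives were DESeq2 1.42.0, limma 3.58.1 on log2 FPKM, other scalings, other filters, other samples, a replicate block and each library left out. Positions are of build GRCm38.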

Additional observations from a re-analysis of the deposited data

How the results depend on the processing

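Of 4074 values of single genes under 20 alternatives, 4011 kept their call. T cell scaling gained 16 calls, lost 1 and reversed 2, limma lost 10, DESeq2 gained 1 and lost 1, fits of only the 2 groups compared gained 1, and leaving out libraries gained 6 and lost 23. Size factors of another kind (RLE), no filter on low counts and library sizes without B lineage and other abundant genes changed no call. Scaling to 12 T cell genes shifted the median of all genes to -1.36 (tumor WT over no tumor WT), 0.96 (labelled ST2-KO over tumor WT), -0.09 (labelled Tbet-KO over tumor WT), -1.05 (labelled Tbet-KO over labelled ST2-KO), -0.42 (labelled ST2-KO over no tumor WT) and -1.46 (labelled Tbet-KO over no tumor WT), and the medians of the 34 genes to -2.93, 2.21, -2.80, -5.25, -0.76 and -5.81. It reversed Bank1 in tumor WT over no tumor WT (-1.03) and Swap70 in labelled ST2-KO over no tumor WT (-0.21), so the count of genes that rose there was 0 and 0, and that of labelled Tbet-KO over tumor WT 0. limma gave 0 genes that rose in labelled Tbet-KO over tumor WT and 0 in labelled ST2-KO over no tumor WT. With a log2 fold change beyond 1 as well, 0 genes rose in each of these 3 comparisons and 1 fell in labelled ST2-KO over no tumor WT. With each library left out, 0 to 2 genes rose in tumor WT over no tumor WT and 0 to 1 in labelled Tbet-KO over tumor WT. The replicate block, for numbers that did not pair the libraries (0 of 18 same-numbered pairs correlated over 0.1), moved 2 calls of Fcer2a, to 1.61 (labelled ST2-KO over tumor WT, no longer called) and -2.58 (labelled Tbet-KO over tumor WT, now called), and no count by over 1.5 times.

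Depth limits Cr2 and Fcer2a, which had at most a few reads in libraries labelled Tbet-KO. Leaving out single libraries changed calls of 9 genes, all with small differences or low counts. In labelled Tbet-KO over tumor WT, Fcer2a was called at -5.58 without labelled Tbet-KO replicate 3, at -2.44 without labelled ST2-KO replicate 1 or 2 and at -2.81 without tumor WT replicate 3. Without labelled ST2-KO replicate 3, Tnfrsf13b in labelled Tbet-KO over labelled ST2-KO was -0.41 and not called. The cause of these changes was not tested.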
